A study of Caenorhabditis elegans with 2 samples.

Results

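The peaks described here are NHR-25 binding regions whose summits lay in introns close to the 5' end of a protein-coding gene. They were chosen by position alone. A summit of the reproducible peak list on ce11 was taken if it lay outside every promoter window, meaning from 2000 bp before to 200 bp past the 5' end of a protein-coding gene, inside a protein-coding gene but in none of its exons, and at most 3000 bp downstream of the nearest host 5' end. Of 5017 reproducible peaks, 472 (9.41%) met the rule and are called members below. Promoter windows held 2870 summits, introns farther than 3000 bp from the host 5' end held 527, exons 216, and sequence outside protein-coding genes 932.

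NHR-25 is a nuclear hormone receptor of the FTZ-F1 and SF-1 family. Receptors of this family bind DNA as monomers at an extended half-site whose centre reads CAAGGTC or CAAGGCC. In Caenorhabditis elegans NHR-25 is known for its roles in epidermal cell fate, molting and fat metabolism. Introns near a gene start can hold enhancers, and can also hold the promoters of shorter transcripts of the same gene.

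ChIP-seq was done on whole worms of both sexes at the L3 stage, the third larval stage, in 1 group of 2 biological replicates. Both came from strain OP33, genotype unc-119(ed3) III; wgIs33, a line with a stable nhr-25 transgene whose product has GFP and FLAG at its C terminus. The labels name no second condition, so samples can be compared only as replicate 1 against replicate 2. Whole animals were used, so a peak cannot be assigned to a tissue, and transgene copies and native copies of nhr-25 cannot be told apart. The separate handling of the replicates is not described further in the labels. Peak signal is the authors' height per peak. No source used here gives its scale, and read depth is unknown.

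The 10 sequences below are examples of 2 kinds of member. They are 5 of the 7 highest members with the extended half-site and the 5 highest members of all. Of the former, W05B5.1 and src-2 are higher than col-159 and unc-23 but are not printed. Each is the summit base of ce11 with 100 bases on either side, read on the plus strand. Capitals mark the half-site core CAAGGTC or CAAGGCC, the GA repeat GAGAGA and the E-box CACGTG on either strand. The members with the extended half-site lie at chrX:12523119-12523319 (scd-1), chrX:6318851-6319051 (chtb-3), chrII:5057394-5057594 (C27A2.12), chrV:13200715-13200915 (col-159, a collagen gene) and chrV:8936965-8937165 (unc-23, a BAG-domain co-chaperone).
scd-1: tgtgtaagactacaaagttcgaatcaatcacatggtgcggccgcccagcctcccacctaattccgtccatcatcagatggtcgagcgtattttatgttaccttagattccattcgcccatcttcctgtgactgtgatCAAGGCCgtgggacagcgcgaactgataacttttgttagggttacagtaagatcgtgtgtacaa
chtb-3: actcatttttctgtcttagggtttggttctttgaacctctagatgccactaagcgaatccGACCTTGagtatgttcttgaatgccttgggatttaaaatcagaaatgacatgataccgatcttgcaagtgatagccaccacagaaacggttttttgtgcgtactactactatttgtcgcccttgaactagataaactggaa
C27A2.12: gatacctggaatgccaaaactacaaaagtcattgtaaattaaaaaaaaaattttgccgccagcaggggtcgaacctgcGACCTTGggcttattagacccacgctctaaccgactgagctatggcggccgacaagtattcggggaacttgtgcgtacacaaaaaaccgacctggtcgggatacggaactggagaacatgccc
col-159: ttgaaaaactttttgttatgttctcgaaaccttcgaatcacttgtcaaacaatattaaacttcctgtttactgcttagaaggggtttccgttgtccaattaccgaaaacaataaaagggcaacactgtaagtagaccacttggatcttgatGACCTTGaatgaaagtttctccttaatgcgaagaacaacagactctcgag
unc-23: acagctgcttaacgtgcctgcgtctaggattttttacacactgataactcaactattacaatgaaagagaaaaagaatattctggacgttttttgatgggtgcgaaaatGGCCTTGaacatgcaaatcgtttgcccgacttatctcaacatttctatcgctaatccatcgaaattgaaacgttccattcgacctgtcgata
The highest members lie at chrX:13009015-13009215 and chrX:13009754-13009954 (both nhr-25), chrIV:2602072-2602272 (epg-9), chrX:15275457-15275657 (kin-20) and chrIV:6097127-6097327 (lag-1).
nhr-25, intron 2: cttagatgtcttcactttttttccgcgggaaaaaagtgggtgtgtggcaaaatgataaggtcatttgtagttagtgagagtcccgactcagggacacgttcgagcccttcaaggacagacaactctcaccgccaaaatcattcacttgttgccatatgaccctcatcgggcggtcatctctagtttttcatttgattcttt
nhr-25, intron 4: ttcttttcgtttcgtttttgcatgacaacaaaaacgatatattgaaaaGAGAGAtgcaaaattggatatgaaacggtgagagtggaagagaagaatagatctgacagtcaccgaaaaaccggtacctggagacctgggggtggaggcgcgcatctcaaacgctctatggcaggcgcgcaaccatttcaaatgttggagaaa
epg-9: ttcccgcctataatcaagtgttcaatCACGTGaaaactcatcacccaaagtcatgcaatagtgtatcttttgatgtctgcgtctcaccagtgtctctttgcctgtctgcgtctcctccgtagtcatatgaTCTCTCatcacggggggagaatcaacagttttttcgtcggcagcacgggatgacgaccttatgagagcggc
kin-20: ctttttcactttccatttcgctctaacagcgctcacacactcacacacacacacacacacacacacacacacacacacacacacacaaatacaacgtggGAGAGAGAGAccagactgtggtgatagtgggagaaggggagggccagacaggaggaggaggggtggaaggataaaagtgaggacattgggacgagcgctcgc
lag-1: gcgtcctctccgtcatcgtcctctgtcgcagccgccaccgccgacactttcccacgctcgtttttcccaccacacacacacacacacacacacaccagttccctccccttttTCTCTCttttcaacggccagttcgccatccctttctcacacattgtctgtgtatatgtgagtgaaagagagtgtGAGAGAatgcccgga
None of the highest 5 shown here held the half-site core in the bases shown, while epg-9, kin-20, lag-1 and the nhr-25 member of intron 4 held the GA repeat and epg-9 also the E-box.

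The highest member was in nhr-25 itself, 622 bp downstream of the annotated 5' end in intron 2. The pooled signal of this peak was 714, replicate 1 had 343 and replicate 2 had 366. A second member of nhr-25, 1361 bp downstream in intron 4, had a pooled signal of 467, with 230 in replicate 1 and 236 in replicate 2. Both samples thus placed these peaks at nearly the same height. Both summits also lay in annotated ncRNA genes within nhr-25. The strain carries an nhr-25 transgene, and its part in these heights was not tested. Without nhr-25 the highest member had a signal of 449 and the median over the other 470 members was 66.6.

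The next highest members lay in genes of several kinds. epg-9, which encodes an autophagy protein, had a member with a pooled signal of 449 in intron 2, with 216 in replicate 1 and 232 in replicate 2. kin-20, a casein kinase 1 gene that acts in developmental timing, had a pooled signal of 317 in intron 1, with 129 in replicate 1 and 194 in replicate 2. lag-1, the DNA-binding effector of Notch signalling, had 295, with 118 in replicate 1 and 182 in replicate 2. The first of these was as even between samples as the nhr-25 peaks, while kin-20 and lag-1 were higher in replicate 2. scpl-3, a gene of the small CTD phosphatase-like family, had 287 (152 in replicate 1 and 133 in replicate 2), and was the only 1 of the 15 highest members with the half-site core. nhr-19, another nuclear hormone receptor gene, had 277 (116 and 161).

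The remaining 8 of the 15 highest members ranged from 236 to 268. They lay in F26F12.3, T24B8.3, rme-4 (an endocytosis gene), rfip-1 (a Rab11-interacting protein), mnk-1 (a MAP kinase-interacting kinase), acs-20 (an acyl-CoA synthetase), aak-2 (a catalytic subunit of AMP-activated kinase) and nhr-31 (a nuclear hormone receptor). T24B8.3 differed most between samples among these 15, with 79.96 in replicate 1 and 196 in replicate 2. mnk-1 differed least, with 126 in replicate 1 and 127 in replicate 2.

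**Figure D1:**
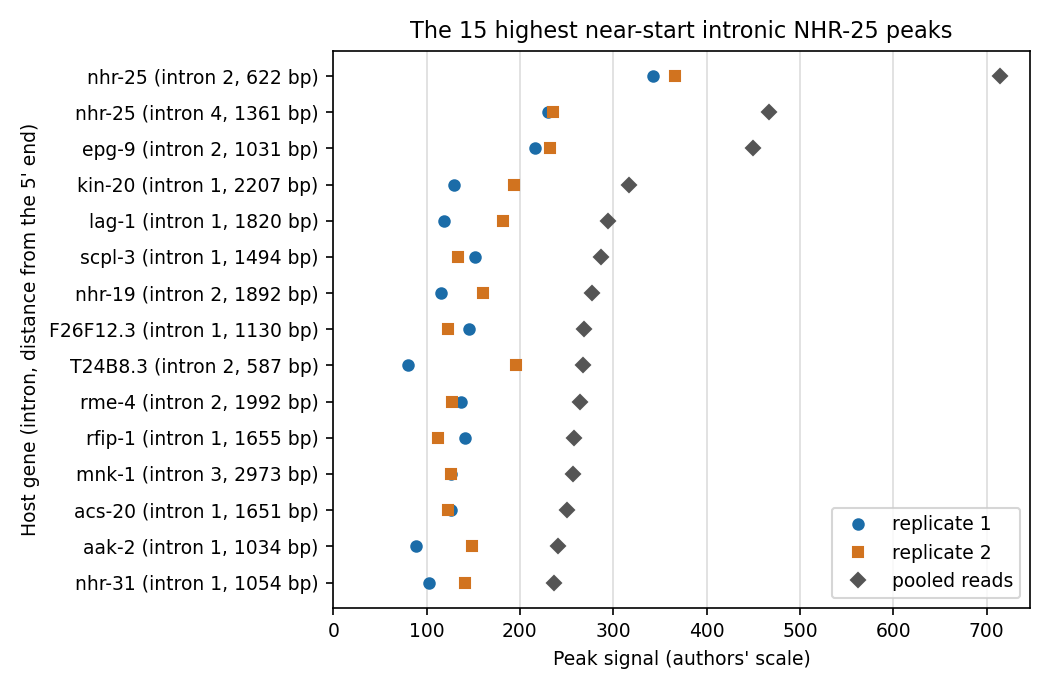
Peak signal (authors' scale) of the 15 highest members in replicate 1 (circles), replicate 2 (squares) and the pooled list (diamonds), by host gene with its intron and the distance from the 5' end. Among the members drawn, the nhr-25 peak of intron 2 stands highest in each replicate and in the pooled list. T24B8.3 shows the widest gap between replicates.

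Members were not the tallest of the reproducible peaks. Their pooled signal ran from 42.2 to 714 with a median of 66.6 and quartiles of 52.1 and 101, against a median of 74.3 over all 5017 peaks, 75.1 for the deeper intronic peaks and 77.0 for the promoter-window peaks. Of the 500 highest peaks, 31 were members. That is 6.57% of the members, against 9.97% of all reproducible peaks, 10.2% of deeper intronic peaks and 10.9% of promoter-window peaks. Members made up 4 of the 100 highest peaks and 9.41% of the whole list. The highest deeper intronic peak, in Y111B2A.12, reached 675 and is no member because of its distance.

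A member was counted as high in both replicates if a summit lay within 100 bp among the 5017 highest peaks of each. This held for 305 of 472 members, or 64.6% (95% exact interval 60.1 to 68.9), where the share over all reproducible peaks was 69.5%. Against the 4545 other peaks, at 69.97%, the odds ratio was 0.784 (0.642 to 0.957), and the difference did not pass the threshold of 0.05 (two-sided Fisher's exact test, adjusted p = 0.0724 over 4 differences). It passed under 3 alternatives, at 0.766 with a promoter window of 1000 bp (adjusted p = 0.0249, exact test), 0.709 with windows at every annotated start (0.0203) and 0.779 with a distance limit of 5000 bp (0.0236). In the higher-signal part of the list, 2508 peaks, it turned to 1.36 (adjusted p = 0.735, exact test). Against the deeper intronic peaks, at 67.6%, the odds ratio was 0.877 (0.675 to 1.14, adjusted p = 0.349, the same exact test). The share went with height. With the members in order of height and in 4 classes of 118, it was 98.3%, 93.2%, 46.6% and 20.3% from the highest class to the lowest. Since members were lower than other peaks, height moved with this difference, and its part in it was not tested.

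Replicate signals could be set side by side for 433 members, those that each replicate list matched within 100 bp. The other 39 divided into 20 found in replicate 1 only and 19 in replicate 2 only. Median signal was 34.5 in replicate 1 and 37.4 in replicate 2. On the log2 scale replicate 2 exceeded replicate 1 by a median of 0.17 (SD over members 0.72). Replicate 2 was over 2-fold higher for 40 members and replicate 1 for 23. Across these 433 members Spearman's rho was 0.597 (0.630 across all 4688 matched peaks). The points share 2 libraries and were selected on their pooled height, so rho is a description. csnk-1 (a casein kinase 1 gene) and W01A8.6, named after their values were seen, were examples at the extremes, with 6.17 and 52.7 for csnk-1 and 36.9 and 4.64 for a member of W01A8.6, in replicates 1 and 2.

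**Figure D2:**
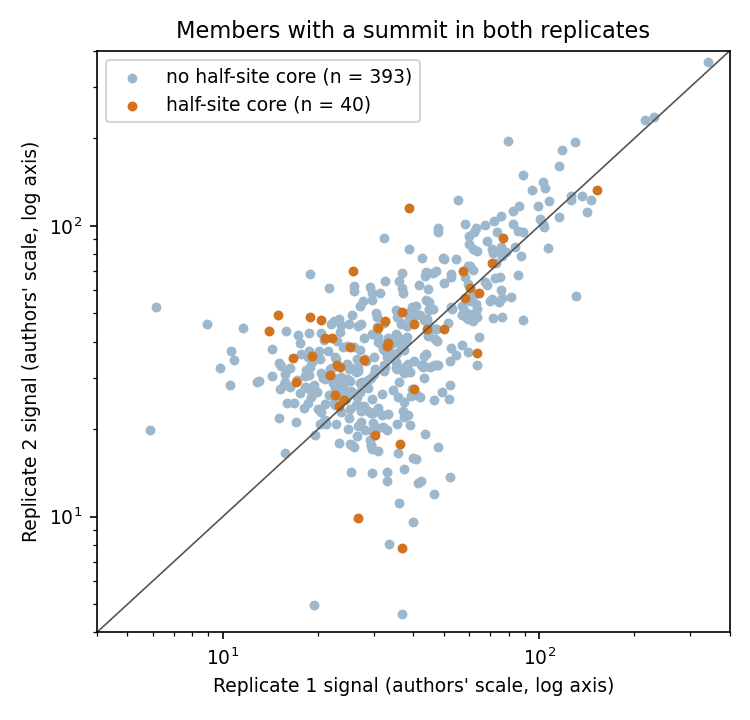
Signal in replicate 1 against replicate 2 (authors' scale, log axes) for the 433 members found in both lists, with the half-site core (orange, n = 40) and without it (blue, n = 393); the line marks equal signal. The points scatter widely about the line at low signal, and the 3 highest members, 2 in nhr-25 and 1 in epg-9, lie near it.

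The rule left 13.8 Mb of intron in 14210 protein-coding genes in which a summit could have been a member, and members numbered 34.2 per Mb (95% exact Poisson interval 31.2 to 37.4). All intervals on densities and shares cover counting error only. The highest peaks of replicate 1 taken alone gave 34.7 per Mb and those of replicate 2 35.4. Deeper introns held 40.03 per Mb (36.7 to 43.6) and promoter windows 79.2 (76.3 to 82.1). Members were sparse next to the promoter window, at 19.8 per Mb (14.9 to 25.9) up to 600 bp from the 5' end. From 601 to 1000 bp the density was 38.3 (31.0 to 46.8), and it stayed between 32.4 and 45.9 in the other bins up to 3000 bp. The limits of the rule cut through this range. Just inside 3000 bp were perm-5 at 2983 bp (signal 93.1), ist-1 at 2982 bp (60.9) and mnk-1 at 2973 bp (257). Just outside were nhr-41 at 3005 bp (86.9), hlh-30 at 3012 bp (64.0) and F09A5.3 at 3014 bp (114). The members nearest to a 5' end were C35B8.3 at 213 bp, hrpk-1 at 215 bp and R02D5.9 at 222 bp.

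Most members had no later annotated transcript start of the host within 2000 bp downstream, but sequence with such a start was dense in them. Starts farther than 2000 bp away were not counted. A later transcript start of the host was annotated within 2000 bp downstream of 162 members (34.3%, 30.04 to 38.8), although only 14.9% of the 13.8 Mb lay so. The densities were 78.9 per Mb (67.3 to 92.1) with such a start and 26.4 (23.5 to 29.5) without one. Replicate 1 alone gave 77.5 and 27.2 per Mb, and replicate 2 alone 83.3 and 27.1, so both samples showed the same order. The median distance to that start was 778 bp, and 66 members lay at most 500 bp before it. Examples were rme-4, whose summit lay 84 bp before a later start, F26F12.3 at 104 bp, rfip-1 at 148 bp and the nhr-25 member of intron 2 at 151 bp. lin-28, an RNA-binding regulator of developmental timing, had its member 50 bp before a later start, and the Hox gene lin-39 45 bp before one.

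First introns held 220 members (46.6%, 42.0 to 51.2) on 34.0% of the bases, at 46.9 per Mb (40.9 to 53.5) against 27.7 (24.3 to 31.3) in later introns. The figures were 48.4 and 27.7 in replicate 1 and 49.5 and 28.2 in replicate 2. Long introns were denser than short ones. The density was 20.2 per Mb (16.3 to 24.7) in introns up to 500 bp, 21.8 from 501 to 1000 bp, 43.8 from 1001 to 2000 bp, 67.3 (56.3 to 79.8) from 2001 to 5000 bp and 62.6 beyond. The median member lay in an intron of 1411 bp, while the median base of the same sequence lay in one of 762 bp. Length and intron order moved together. In introns up to 1000 bp the density was 21.4 per Mb in first introns and 20.7 in later ones, and in longer introns it was 65.2 (56.0 to 75.5) against 44.2 (36.6 to 52.9). Away from a later transcript start the order turned in introns up to 1000 bp, with 13.5 (8.46 to 20.4) in first introns against 18.6 (15.3 to 22.4) in later ones. In longer introns away from such a start it was 50.8 (41.3 to 61.8) against 35.1 (27.7 to 43.8), with intervals that overlap. The density ahead of a later transcript start was above the rest in both length classes, at 52.2 (37.7 to 70.3) against 17.5 (14.6 to 20.7) per Mb in introns up to 1000 bp and 96.9 (80.3 to 116) against 42.4 (36.4 to 49.2) in longer ones. These densities were not tested against each other.

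**Figure D3:**
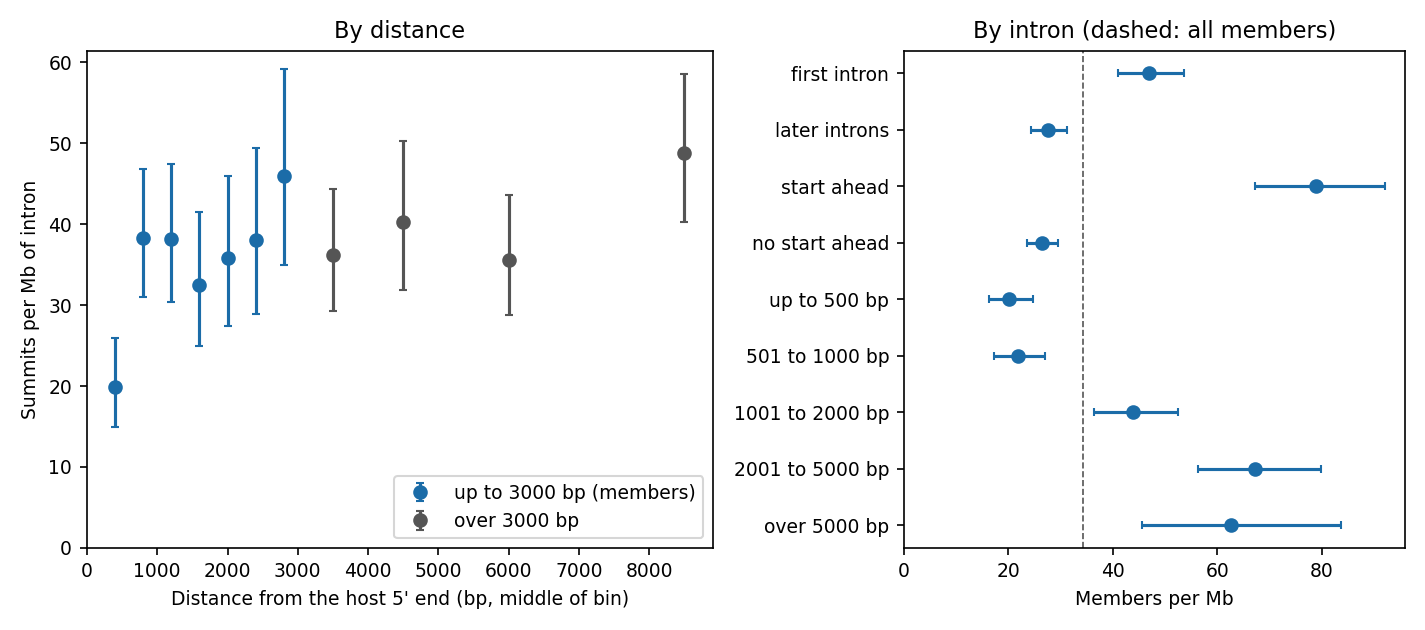
Left, summits per Mb of intron by distance from the host 5' end (middle of each bin, bp) for members and for deeper intronic peaks. Right, members per Mb by intron order, by whether a later transcript start lies within 2000 bp ahead, and by intron length; bars are 95% exact Poisson intervals and the dashed line is the density of all members. The bin next to the promoter window is the lowest, and sequence ahead of a later start is the densest class shown.

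On the X chromosome members numbered 44.7 per Mb (36.9 to 53.6), with 115 of 472, against 31.8 (28.6 to 35.3) on the autosomes. X held 24.4% of the members, 23.5% of the deeper intronic peaks and 21.6% of all reproducible peaks, so the deeper intronic peaks had nearly the same share. Replicate 1 alone gave 48.2 and 31.6 per Mb, and replicate 2 alone 48.95 and 32.3. The autosomes themselves ranged from 24.2 per Mb on chromosome V to 40.8 on chromosome III, so the interval of chromosome III (32.4 to 50.7) overlapped that of X.

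A part of the members sat in annotated non-coding genes inside introns. This was so for 55 members (11.7%, 8.90 to 14.9), on 1.75% of the bases, which gives 228 per Mb (172 to 297). The same share was not computed for the deeper intronic or other reproducible peaks, so it is not shown to be particular to members. ncRNA genes accounted for 38 of the overlaps and tRNA genes for 15. tRNA genes, which RNA polymerase III transcribes, covered 0.0637% of the sequence and held 15 members, at 1707 per Mb (955 to 2816). The 55 members had a median signal of 66.1, close to the 66.6 of all members, and a median GC content of 46.8% against 42.3%. Leaving them out gave shares of 9.83% for the half-site core, 65.9% for members high in both replicates and 36.2% for a later start ahead.

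The half-site core was found within 100 bp of the summit in 43 of 472 members, or 9.11% (6.67 to 12.1), where the share over all reproducible peaks was 6.8%. In windows of the same length centred 1000 bp to each side of the members' summits the shares were 1.48% and 2.75%. Of 49376 windows of the same length in the same intron sequence without a reproducible summit, 1.06% (0.969 to 1.15) held it. The core was thus several times as frequent at the summits as around them, but 429 members had none. The highest peaks of replicate 1 taken alone gave 7.52% and those of replicate 2 9.82%. In 34 of the 43 the core lay at most 50 bp from the summit, and 2 members held more than 1 core.

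The share with the core was 7.21% in deeper intronic peaks and 6.10% in promoter-window peaks. Against the 4545 other peaks, at 6.56%, the odds ratio of the members was 1.43 (1.02 to 2.00), which did not pass the threshold after adjustment (two-sided Fisher's exact test, p = 0.0431, adjusted p = 0.0861). It passed when the core was sought within 50 bp (1.65) or 200 bp (1.45) of the summit (adjusted p = 0.0362 for each, exact test). For the extended half-site the odds ratio was 1.27 and did not pass (adjusted p = 0.469, exact test). With the other promoter windows and distance limits it was 1.37 to 1.63 and did not pass (adjusted p from 0.0507 to 0.112, exact test). In the higher-signal part of the list it was 1.21 (adjusted p = 0.735, exact test). In replicate 2 alone the odds ratio was 1.56 and passed (adjusted p = 0.0163 over 2 differences, exact test), and in replicate 1 alone it was 1.18 and did not (adjusted p = 0.457, the same exact test). Against the deeper intronic peaks it was 1.29 (0.818 to 2.03, adjusted p = 0.349, exact test). With replicate 2 alone that odds ratio was 1.68 and passed (adjusted p = 0.0279, exact test). With replicate 1 alone it was 1.21 and did not (adjusted p = 0.457, the same exact test). Members with the core were no taller than the others, with a median signal of 65.8 against 66.6.

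The extended half-site, which is the core preceded by C or T and followed by A or G, was found in 20 members, or 4.24% (2.61 to 6.47), where the share over all reproducible peaks was 3.45%. The flanks held it in 0.212% and 0.424%, and the windows without a summit in 0.312%. The highest member with it was the scd-1 peak printed above, with a pooled signal of 167 (76.6 in replicate 1 and 90.8 in replicate 2), in an intron of 11362 bp. chtb-3 had 140 (71.2 and 74.5), and W05B5.1 had 127 (57.6 and 69.9). These 3 were similar in both samples. C27A2.12 had 126 (64.7 and 58.9), but its summit lay in an annotated tRNA gene, and it was the only member in a tRNA gene with the core. src-2, a Src-family kinase gene, had 123 (60.4 and 61.2). col-159 had 120, with 74.8 in replicate 1 and no summit within 100 bp in replicate 2. unc-23 had 116 (58.4 and 56.7), with its core 12 bp from the summit.

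Patterns known for other factors were also counted on both strands. The GA repeat GAGAGA was within 100 bp of 180 member summits, or 38.1% (33.7 to 42.7), against 14.8% and 14.2% in the flanks and 7.59% of the windows without a summit. Deeper intronic peaks had it in 47.6% and all reproducible peaks in 37.9%. The E-box CACGTG, a binding site of basic helix-loop-helix proteins, was near 57 summits, or 12.1% (9.28 to 15.4), against 4.45% in each flank and 2.62% of the windows. All reproducible peaks had it in 7.65%, deeper intronic peaks in 9.87% and promoter-window peaks in 6.62%. In the single replicates the members' shares were 34.9% and 39.1% for the GA repeat and 10.9% and 11.0% for the E-box. TGACTCA, an AP-1 type site, was near 3.18% of the summits and in 1.91% and 1.69% of the flanks. GATAA, the core of GATA factor sites, was near 40.7% of the summits and in 40.04% of each flank, which lies inside the interval at summits (36.2 to 45.3). The windows without a summit held it in 35.9% (35.4 to 36.3), a share just below that interval.

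Base composition moved with these shares. Windows at member summits had a median GC content of 42.3%, and windows without a summit 31.8%. Among windows between the members' GC quartiles (38.3% and 46.8%), the half-site core was in 9.504% of 242 members and 1.87% of 8787 windows, the GA repeat in 35.5% and 13.5%, the E-box in 14.05% and 5.998%, and GATAA in 40.1% (33.9 to 46.6) and 27.7% (26.7 to 28.6). The shares of these 4 at summits were thus higher than in windows within that range of GC. For GATAA the members' own flanks had nearly the same share as the summits, as given above. TGACTCA was in 4.13% (2.00 to 7.47) of the members and 1.82% (1.55 to 2.12) of the windows in that range, with intervals that overlap. A match is only a match of letters.

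**Figure D4:**
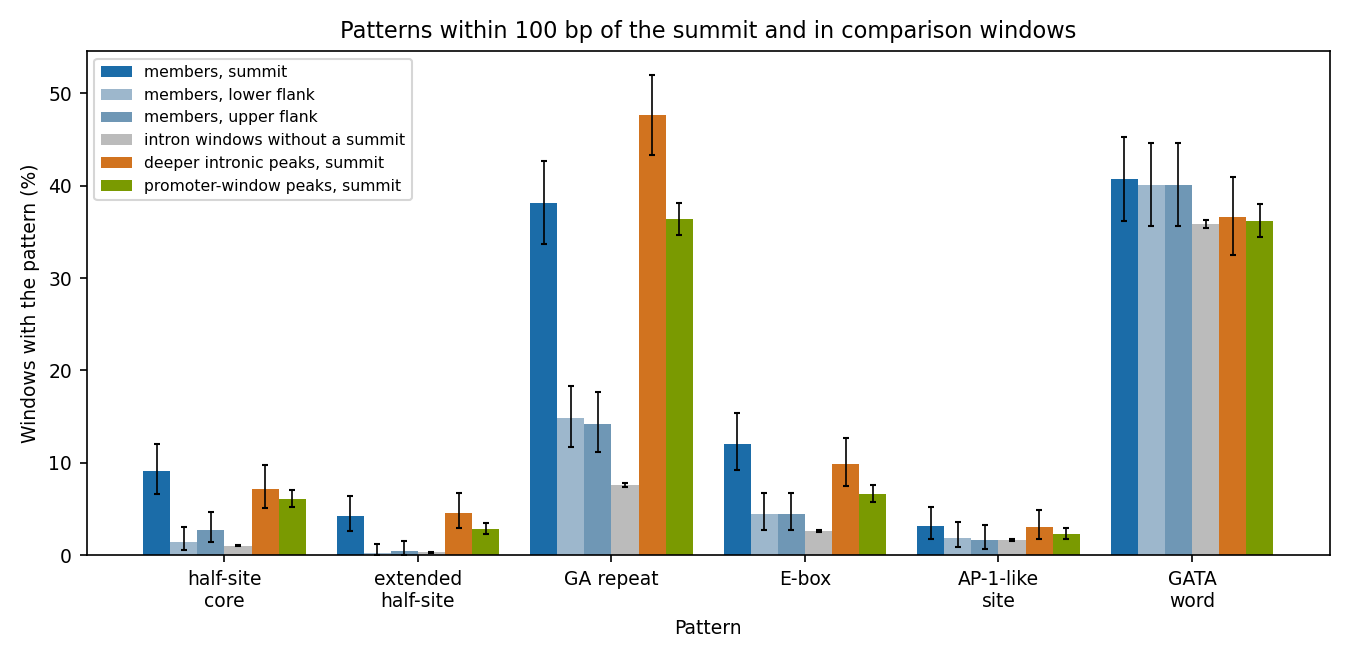
Share (%) of windows of 100 bp to either side that hold each pattern, at member summits, in their flanks at lower and higher coordinates, in near-start intron windows without a summit, and at the summits of deeper intronic and promoter-window peaks; bars are 95% exact binomial intervals. The half-site, GA repeat and E-box shares are higher at summits than in flanks or windows, while the GATA word has nearly the same share at summits and in flanks and a lower one in windows without a summit.

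The 472 members lay in 400 host genes, which are 2.81% of the 14210 genes with such intron sequence. Of these, 337 held 1 member, 54 held 2 and 9 held 3. The 9, named after their values were seen, were epg-9, kin-20, nhr-31, nhr-23, let-526, nhr-91, egl-27, C07A9.9 and ZC190.4. Just 1 member lay in more than 1 protein-coding gene. Members of a gene share their surroundings and 16 members had intervals that overlap another member, so members are not independent. Host genes were often bound in the promoter too. A summit lay in the own promoter window of 167 of 400 hosts, or 41.8% (36.9 to 46.8), and of 16.5% of the 13810 genes without a member. Hosts had more of the intron sequence, with a median of 2002.5 bp against 718 bp. Within classes of the length of this sequence the order was the same. For up to 500 bp the share was 47.6% of only 21 hosts (25.7 to 70.2) against 16.2%. For 501 to 1000 bp the share was 50% of 42 hosts (34.2 to 65.8) against 17.4%. The longer classes gave 48.9% against 18.4% for 1001 to 2000 bp, and 34.5% against 12.2% for 2001 to 3000 bp.

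Genes of epidermal development were among the hosts. The gene lists here and below were chosen with earlier results of these data known, so their densities only describe these data. Among 18 epidermal transcription factor genes with near-start intron, 6 were hosts of 11 members, a density of 296 per Mb (148 to 530) where all genes had 34.2. The intervals of this and the other lists count members of the same gene as independent, which they are not. nhr-23, a receptor that drives molting, had 3 members, the highest with a signal of 232 (104 in replicate 1 and 135 in replicate 2). egl-27, a homologue of the NuRD subunit MTA1, had 3, the highest with 144 (75.0 and 66.5). elt-1, the GATA factor that specifies epidermis, had 1 with 97.5 (43.8 and 55.5). The other hosts were bed-3, ceh-16 and elt-3. The single replicates gave 10 members each for this list. The median signal of the 11 was 83.7. Epidermal transcription factor genes had a median of 2139.5 bp of near-start intron per gene, against 742 bp over all genes. The medians were 1713 bp for the heterochronic and 1365 bp for the molting genes described next. Neuronal genes had 2338.5 bp and body wall muscle genes 1800 bp. The part of this in the densities and host counts was not tested.

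Molting genes gave the highest density, with 8 of 34 genes hosting 15 members at 307 per Mb (172 to 506), and 13 and 15 members in the single replicates. kin-20 and nhr-23 stand in this list too, and the next was dab-1, a Disabled homologue, with 160 (62.1 in replicate 1 and 95.5 in replicate 2). Among 18 heterochronic genes, which time larval fates, 5 hosted 8 members at 267 per Mb (115 to 527). After kin-20 the highest were daf-12, a steroid-responsive receptor gene, with 177 (82.9 and 101), and lin-28 with 152 (73.2 and 74.5). Of 22 junction, attachment and fusion genes, 3 hosted 1 member each. These were mup-4, an apical attachment protein of the epidermis, with 138 (75.8 and 60.1), jac-1, the p120 catenin, with 116 (50.03 and 63.5), and dlg-1, a Discs large homologue, with 62.9 (34.5 in replicate 1, none within 100 bp in replicate 2).

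Nuclear hormone receptor genes, the family of NHR-25 itself, had 29 members in 17 of 234 genes at 119 per Mb (79.9 to 171), and 30 in each single replicate. The highest were nhr-25, nhr-19 and nhr-31, with values given above. nhr-31 and nhr-91 held 3 members each. Hox genes and cofactors had 3 hosts of 9, namely lin-39 with 71.1 (30.8 and 39.9), unc-62, a Meis homologue, with 65.0 (52.3 and 13.7), and ceh-13, the labial homologue, with 47.2 (15.3 and 33.1). Only lin-39 of these stood above the members' median of 66.6, and unc-62 and ceh-13 differed by over 2-fold between samples. The 57 homeobox genes named ceh had 2 hosts, ceh-16, the engrailed homologue, and ceh-13, at 42.3 per Mb (8.72 to 124).

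Among signalling genes, TGF-beta pathways had 3 hosts of 19 with 6 members, 210 per Mb (77.1 to 457). They were daf-5, a Sno/Ski homologue, with 117 (61.5 and 57.4), sma-9, a Schnurri homologue, with 79.9 (43.4 and 35.8), and daf-14, a Smad, with 68.2 (22.4 and 47.0), each with 2 members. Insulin signalling had 2 hosts of 11, pdk-1 with 203 (104 and 99.4) and ist-1, an insulin receptor substrate homologue, with 60.9 (13.97 and 43.5). The Notch list had lag-1 alone of 16 genes, the EGF, Ras and MAPK list mek-2 alone of 25 with 93.3 (42.1 and 49.6), and the Wnt list sys-1, a beta-catenin, alone of 27 with 43.9 (25.7 and 17.6). Lipid genes had 4 hosts of 21 with 6 members, 198 per Mb (72.7 to 431). After acs-20 at 250 (126 and 123), the highest were fat-3, a fatty acid desaturase, with 113 (56.9 and 53.0), and fasn-1, the fatty acid synthase, with 99.8 (29.4 in replicate 1, none within 100 bp in replicate 2).

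The remaining lists had few members or none. Neuronal genes (24) and body wall muscle genes (21) had 0 members, on 0.0516 and 0.0310 Mb of sequence. The intervals allow up to 71.5 and 119 per Mb, so both include the 34.2 per Mb of all genes. Ribosomal protein genes (14) had 0 as well, on only 0.002405 Mb of sequence. The chemoreceptor name pattern matched 854 genes with 5 hosts, at 9.03 per Mb (2.93 to 21.1), led by src-2, srap-1 with 121 (71.7 and 48.3) and srxa-9 with 64.6 (30.1 and 35.3). src-2 is a kinase gene matched by name only, and srap-1, with 24 introns, was not checked to be a receptor gene, so fewer than 5 of the hosts are chemoreceptor genes. Several lists share genes, such as nhr-23, kin-20, bed-3, daf-12, ceh-16 and ceh-13, so their counts are not independent, and no list was tested.

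**Figure D5:**
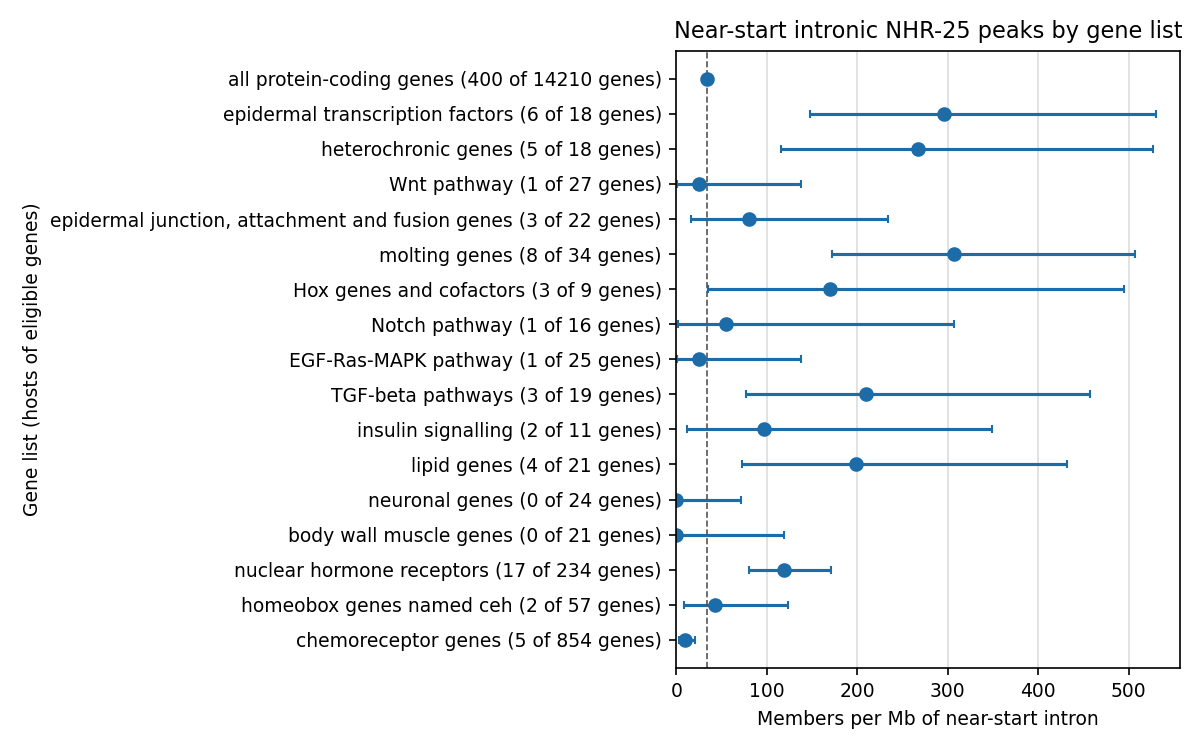
Members per Mb of near-start intron for each gene list, with the number of host genes among those with such intron; bars are 95% exact Poisson intervals and the dashed line is the density over all genes. Molting, epidermal and heterochronic genes lie at 267 to 307 per Mb. Neuronal and muscle genes lie at 0, with intervals that include the dashed line. Ribosomal protein genes, with 0, are not drawn. The lists were chosen with earlier results of these data known.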

How the data were processed

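Per the labels, NHR-25 ChIP-seq was done in 2 biological replicates of a single group, from sonicated chromatin. The authors deposited peak lists. The aligner and caller were not given in the sources used here. Per the deposited index text, the authors derived a replicate list from 1 replicate with a control, the pooled list from both replicates with the control, and the reproducible list by thresholding on the irreproducible discovery rate (IDR). Replicate and pooled lists hold 30000 regions each, background included. The signal column the authors deposited is a peak height on a scale that no source used here gives. The −log10 q-values the authors deposited were at their maximum for 313 members, so peaks were ordered by signal. Depth per sample is unknown, and no enrichment over control was computed. All 5017 reproducible peaks stand in the pooled list with the same position and signal.

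Peaks on ce11 were placed on genes of Ensembl release 115 (WBcel235, the same assembly), and sequences come from the RefSeq genome of that assembly. Coordinates are 1-based. Introns are counted over merged exons of all transcripts, a later transcript start is any annotated start of the host, and non-coding genes exclude piRNA genes. Trans-splicing can place an annotated 5' end downstream of the true start, and no correction was made. Replicate summits were matched within 100 bp, and the 5017 highest peaks of each replicate stood for it alone. The differences were tested with two-sided Fisher's exact tests and p-values adjusted by Benjamini-Hochberg over 4 differences and a threshold of 0.05. Peaks are not replicates, so these p-values describe this list only and not spread between worms, and intervals (95%, exact binomial or Poisson) cover counting error only. The position rule, pattern search and test were tested on simulated or recomputed cases.

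The members and the 17 gene lists were chosen with earlier results of these data known. Genes named are the hosts of the 15 highest members, of up to 3 highest members of each list, of the 5 highest with the extended half-site, those at the distance limit, nhr-25 and Y111B2A.12, with exceptions marked in the text. Printed sequences follow the same order within the chromosomes shown. Alternatives were other promoter windows, distance limits, match distances, search windows, the higher-signal part of the list and each replicate left out. Leaving out members in non-coding genes was added after seeing the data. Python 3 with numpy, scipy and matplotlib was used.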

Additional observations from a re-analysis of the deposited data

How the results depend on the processing

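The number of members was 310 with promoter windows at every annotated transcript start, where by construction the share ahead of a later start was 0%, and 195 among the 2508 peaks of highest signal. In that part of the list 96.9% of the members were high in both replicates, and the odds ratios for that share turned to 1.36 against other peaks and 2.00 against deeper intronic peaks (adjusted p = 0.735 for both, Fisher's exact test). The share was 53.6% with summits matched within 50 bp and 69.7% within 200 bp. Against other peaks its odds ratio passed the threshold at 0.766 with a promoter window of 1000 bp (adjusted p = 0.0249, exact test), 0.709 with windows at every start (0.0203) and 0.779 with a limit of 5000 bp (0.0236). The share with the core was 6.57% within 50 bp of the summit, 12.1% within 200 bp and 4.24% for the extended half-site. Its odds ratio against other peaks was 1.65 within 50 bp and 1.45 within 200 bp, and both passed (adjusted p = 0.0362, exact test). With a replicate left out it ranged from 1.18 to 1.56, and against deeper intronic peaks from 1.21 to 1.68. The cause of these changes was not tested. The other 52 values kept their side of the threshold, stayed within the interval reported or, for the number of members, stayed within 1.5 times. Depth is unknown, so what it limits cannot be given. No paired analysis was possible because the 2 samples belong to 1 group.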
